A study of Homo sapiens with 12 samples.

Results

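The question was which genes responded to salinomycin differently in a mesenchymal-like and an epithelial line of human mammary cells. The measure was a difference of 2 responses, namely the change of a gene with salinomycin in HMLE-Twist cells minus its change in HMLE-pBp cells. All 12 of the 12 libraries of the series enter it, in 4 groups of 3 biological replicates, and 11907 genes were tested. HMLE is a line of human mammary epithelial cells that was immortalised with hTERT and the SV40 early region. HMLE-Twist cells, labelled EMT, express the transcription factor TWIST1, which drives the switch of epithelial cells to a mesenchymal state (EMT). HMLE-pBp cells, labelled nonEMT, carry the empty control vector. Each line was given 0.2 uM salinomycin or DMSO, the mock treatment, for 24 hours, and both lines share the HMLE parent. The labels describe 1 HMLE-Twist line and 1 HMLE-pBp line, so a difference between them is one between these lines.

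Salinomycin is a polyether antibiotic that carries potassium and other cations across membranes, and it is known for acting on mesenchymal-like breast cancer cells more than on epithelial ones. Cells that sense too little cholesterol in the membrane of the endoplasmic reticulum (ER) release the SREBP transcription factors, which are carried to the Golgi, cut there, and then switch on the genes of cholesterol and fatty acid synthesis. The ER and Golgi are also where secreted proteins are folded and sorted, and stress there calls up chaperones, cargo receptors and amino acid genes.

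The lines matched their labels. TWIST1 was at 505 to 1186 FPKM (fragments per kilobase of gene, scaled by library size) in the 6 HMLE-Twist libraries and at 1.83 to 2.55 FPKM in the 6 HMLE-pBp libraries. CDH1, which encodes E-cadherin, was at most 0.155 FPKM in HMLE-Twist and at 162 to 187 FPKM in HMLE-pBp. VIM, which encodes vimentin, was at 1763 to 2545 FPKM in HMLE-Twist and at 33.7 to 89.7 FPKM in HMLE-pBp. Libraries held 17613967 to 26216337 recovered reads. The first principal component separated the lines and held 86.4% of the variance, and the second held 5.2%. The summed level of 8 leukocyte markers was 22.8 to 26.9 FPKM in HMLE-Twist mock, 37.2 to 41.7 with salinomycin, 31.6 to 43.5 in HMLE-pBp mock and 21.2 to 30.9 with salinomycin, led by CD68 and CD14. The 6 endothelial markers summed to at most 1.86 FPKM. These are bulk samples, so fewer cells of a kind and less RNA per cell cannot be told apart.

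A response is given below as the change of log2(FPKM + 1) with salinomycin against mock in 1 line, and the difference is the HMLE-Twist response minus the HMLE-pBp response, both with their standard error. On this scale the changes of genes under a few FPKM are understated. A response or a difference was called at an adjusted p under 0.05 in limma, with the Benjamini-Hochberg adjustment over all genes tested. The difference was called for 1611 genes (13.5% of those tested): 829 lay above 0 (6.96%), that is toward higher in HMLE-Twist, and 782 lay below 0 (6.57%). On TPM in place of FPKM the split was 838 above and 503 below, of 1341 called.

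Responses in opposite directions, each called in its own line, were found for 137 genes (1.15%). Of these, 68 fell in HMLE-Twist and rose in HMLE-pBp (0.571%), and 69 rose in HMLE-Twist and fell in HMLE-pBp (0.579%). In 134 of the 137, salinomycin and mock libraries did not overlap in either line. The 137 were chosen by calls on these same libraries, so that count describes them and supports nothing. A response called in HMLE-Twist but not in HMLE-pBp was found for 873 genes (7.33%), with 428 up (3.59%) and 445 down (3.74%). The reverse, called in HMLE-pBp but not in HMLE-Twist, held for 422 genes (3.54%), with 188 up (1.58%) and 234 down (1.97%). A missed call does not show that a line did not respond, and the 95% interval of the other line's response lay within 1.5-fold for 783 of the 873 and 382 of the 422. A gene near 0 FPKM in the other line meets that bound almost whatever its ratio, so for such genes it shows nothing. Under 1 FPKM in all 6 HMLE-pBp libraries were 34 of the 428 and 76 of the 445. Under 1 FPKM in all 6 HMLE-Twist libraries were 39 of the 188 and 63 of the 234. Another 44 genes rose in both lines (0.37%) and 6 fell in both (0.0504%) by different amounts, and 129 (1.08%) were called in neither line alone. For comparison, the HMLE-Twist response itself was called for 1531 genes up (12.9%) and 1611 down (13.5%), and the HMLE-pBp response for 1138 up (9.56%) and 1104 down (9.27%).

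**Figure D1:**
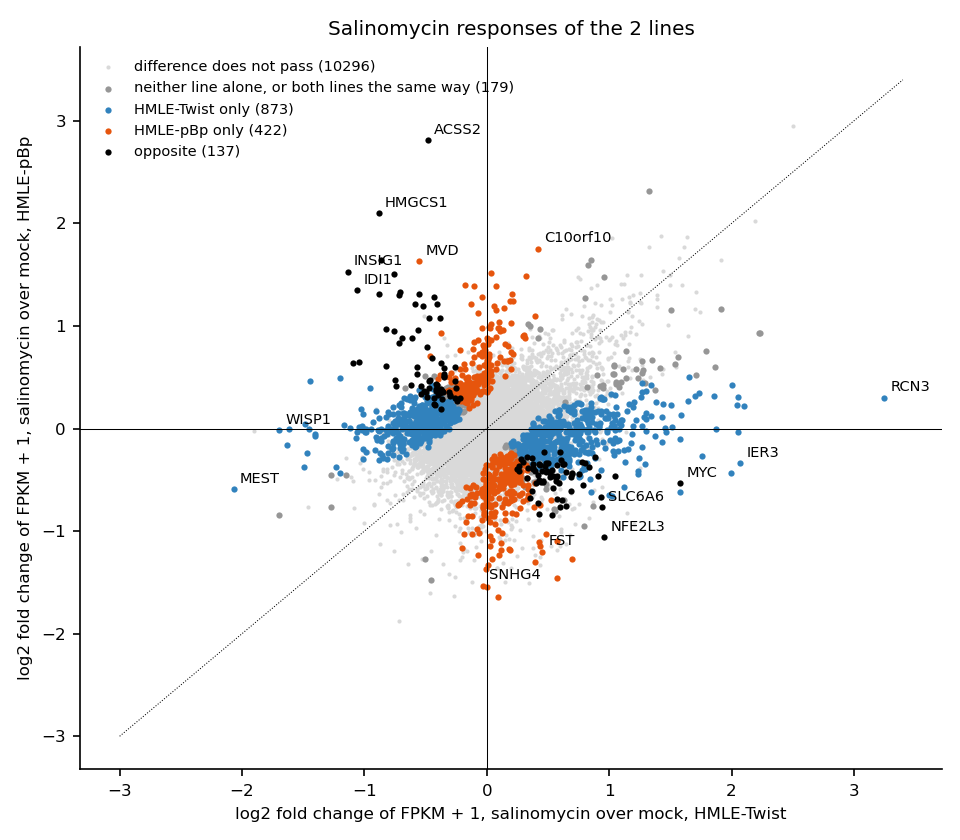
Response in HMLE-Twist (x axis) against response in HMLE-pBp (y axis), each as the change of log2(FPKM + 1) with salinomycin, 1 point a gene, coloured by class, with a dotted line where the responses are equal. The 137 opposite genes (black) lie to the upper left, led by ACSS2 and HMGCS1, and to the lower right, led by MYC and NFE2L3.

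Same-numbered libraries deviated together within a line. With the replicate number as a block within each line the difference was called for 3874 genes, all 1611 among them, and 523 genes were opposite (225 down in HMLE-Twist and 298 up), with all 137 among them. The block gave 1653 HMLE-Twist-only and 1234 HMLE-pBp-only genes, so a gene named below as a response of 1 line can be called in both with the block. Leaving out any 1 library left 62 to 196 opposite genes, and the difference was still called for 135 to 137 of the 137. Leaving out replicate 2 from all 4 groups left 54 differences and 15 opposite genes.

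Of the 68 genes that fell in HMLE-Twist and rose in HMLE-pBp, 23 were members of the lists of mevalonate, cholesterol, SREBP control and fatty acid genes. Their promoters, the 250 bases before the gene's start in the RefSeq table (assembly GRCh38.p14, not the hg19 build of the deposited values), were searched on both strands for the CCAAT box, which binds the factor NF-Y that works beside SREBP. A gene was given 1 promoter, the first listed under its name, so any other start was not searched for it. The box was found in 15 of the 20 whose promoter the table holds (75%), in 8 of 23 other tested genes of these lists (34.8%), in 13 of 31 other genes of the same opposite class (41.9%), in 15 of 40 genes opposite the other way (37.5%), and in 3153 of 8881 of all genes tested (35.5%). With every listed promoter counted, the box stood in 11240 of all 35116 in the table (32%). The core of the sterol response element, searched as TCACNCCAC on both strands, was in 0 of the 20 and in 0.883% of all promoters. That says only that these letters are not in these windows. IDI1, whose difference was larger in size than that of MSMO1, had 0 boxes, as had FADS2, LPIN1, CYP51A1 and FADS1. The 4 promoters below all hold a box, so they do not stand for the 20. They belong to genes whose values follow and are shown to let the boxes be seen, with CCAAT (or ATTGG, the same box on the other strand) in capitals.
ACSS2, chr20:34874739-34874988: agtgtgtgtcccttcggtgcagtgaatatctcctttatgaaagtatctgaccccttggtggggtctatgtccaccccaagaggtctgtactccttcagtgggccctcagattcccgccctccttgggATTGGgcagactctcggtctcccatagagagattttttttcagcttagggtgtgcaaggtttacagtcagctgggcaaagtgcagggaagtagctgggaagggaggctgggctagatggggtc
HMGCS1, chr5:43313413-43313662: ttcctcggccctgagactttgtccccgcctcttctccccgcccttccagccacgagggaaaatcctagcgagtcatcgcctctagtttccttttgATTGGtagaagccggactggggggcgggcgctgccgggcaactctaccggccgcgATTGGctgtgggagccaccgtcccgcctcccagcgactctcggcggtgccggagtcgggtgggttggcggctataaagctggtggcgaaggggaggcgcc
INSIG1, chr7:155297628-155297877: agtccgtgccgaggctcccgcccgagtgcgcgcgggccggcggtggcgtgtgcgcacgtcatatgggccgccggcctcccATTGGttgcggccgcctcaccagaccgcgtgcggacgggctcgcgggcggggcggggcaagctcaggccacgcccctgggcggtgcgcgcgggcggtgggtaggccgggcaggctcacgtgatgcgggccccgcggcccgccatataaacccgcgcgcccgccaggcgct
MSMO1, chr4:165327419-165327668: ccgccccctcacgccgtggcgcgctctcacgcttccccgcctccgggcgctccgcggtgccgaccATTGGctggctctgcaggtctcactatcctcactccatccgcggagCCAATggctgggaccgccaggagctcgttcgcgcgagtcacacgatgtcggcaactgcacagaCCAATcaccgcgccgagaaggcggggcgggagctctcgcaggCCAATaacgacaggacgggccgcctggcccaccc
The box began 123 bases before the start in ACSS2, 155 and 100 bases before it in HMGCS1, 170 before it in INSIG1, and at 185, 139, 76 and 34 bases in MSMO1.

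Of 21 tested enzymes from acetyl-CoA to cholesterol, the difference was called for 19, and for all 19 it lay below 0. In 14 of them the gene fell in HMLE-Twist and rose in HMLE-pBp, and in 5 it rose in HMLE-pBp with no call in HMLE-Twist. The 14 became 11 to 14 when 1 library was left out and 16 with the block. By part of the pathway, 8 of 9 mevalonate enzymes differed (median difference -1.73, median response -0.55 in HMLE-Twist and 1.35 in HMLE-pBp), as did 11 of 12 enzymes from squalene to cholesterol (-1.37, -0.46 and 0.91). The medians over all genes were 0 for the difference and -0.01 for each response. The difference was called for 13.5% of all genes tested, the share to set beside the count of each list below.

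HMGCS1 condenses acetyl-CoA units into HMG-CoA at the entry to the pathway. Its level was 67.2, 35.6 and 58.4 FPKM in HMLE-Twist mock and 28.1, 29.1 and 26.1 FPKM with salinomycin. In HMLE-pBp the mock libraries had 18.1, 22.9 and 26.0 FPKM and the salinomycin libraries 90.0, 105 and 100 FPKM. Salinomycin libraries were all below mock in the first line and all above it in the second, so the line with the higher level changed from HMLE-Twist to HMLE-pBp. The response was -0.88 ± 0.19 in HMLE-Twist (adjusted p = 0.0055, limma) and 2.10 ± 0.19 in HMLE-pBp (adjusted p = 5.3e-05, limma). Their difference was -2.98 ± 0.27 (adjusted p = 1.0e-04, limma). ACAT2, the thiolase of the step before, went from between 61.2 and 66.6 to between 31.8 and 36.8 FPKM in HMLE-Twist and from between 21.0 and 22.4 to between 61.4 and 85.2 FPKM in HMLE-pBp, a difference of -2.51 ± 0.16 (adjusted p = 7.6e-06, limma). IDI1, which isomerises the isoprenoid unit, had 147 to 204 FPKM in HMLE-Twist mock, 79.0 to 91.0 with salinomycin, 48.5 to 54.1 in HMLE-pBp mock and 111 to 151 with salinomycin (difference -2.41 ± 0.18). For these 3 genes, too, the groups within a line did not overlap.

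MVK, the mevalonate kinase, fell in HMLE-Twist from between 38.0 and 54.3 to between 18.6 and 23.0 FPKM and rose in HMLE-pBp from between 29.4 and 34.7 to between 45.9 and 52.3 FPKM (difference -1.73 ± 0.18). Its fall of 1.1 on the log2 scale was larger than its rise of 0.64. FDPS, which makes farnesyl diphosphate, changed mostly by its rise: it went from between 159.8 and 189.9 to between 128 and 139.9 FPKM in HMLE-Twist and from between 129 and 136 to between 287 and 346 FPKM in HMLE-pBp (difference -1.62 ± 0.12). MVD, the mevalonate diphosphate decarboxylase, rose in HMLE-pBp and overlapped in HMLE-Twist, with 30.9 to 41.5 against 87.7 to 134 FPKM in HMLE-pBp and 39.9 to 81.5 against 36.2 to 42.2 FPKM in HMLE-Twist. Its HMLE-Twist response of -0.55 ± 0.22 missed the call (adjusted p = 0.088, limma; adjusted p = 0.0094 with the replicate block and 0.0048 to 0.41 over all alternatives). GGPS1, which makes the lipid for protein prenylation, differed by -0.64 ± 0.15 through a rise in HMLE-pBp. That call was lost without HMLE-Twist salinomycin replicate 3 (adjusted p = 0.051, with 6.6e-04 to 0.24 over all alternatives), and the fall in HMLE-Twist was called with the block (adjusted p = 0.027 with the replicate block and 0.027 to 0.43 over all alternatives). PMVK was the mevalonate enzyme with no call, at 17.9 to 24.9 FPKM over all HMLE-Twist and 14.3 to 20.3 FPKM over all HMLE-pBp libraries (difference -0.08, 95% interval -0.47 to 0.31).

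After squalene, TM7SF2, a sterol reductase, had the lowest difference, -2.19 ± 0.30. It was at 2.61, 5.34 and 4.99 FPKM in HMLE-Twist mock against 1.56, 2.28 and 1.63 with salinomycin. For HMLE-pBp the values were 2.93, 4.89 and 4.45 FPKM in mock and 10.9, 10.6 and 13.1 FPKM with salinomycin. Its mock levels overlapped between the lines, and its levels with salinomycin did not. MSMO1, which takes part in the removal of methyl groups from the sterol ring, was at 151, 94.3 and 120.5 FPKM in HMLE-Twist mock and 72.0, 78.1 and 68.5 with salinomycin. In HMLE-pBp it was at 130.2, 158 and 171 and 384, 408 and 359 FPKM (difference -2.04 ± 0.21, adjusted p = 2.3e-04, limma). FDFT1, the squalene synthase, fell from between 75.9 and 91.0 to between 48.0 and 51.3 FPKM in HMLE-Twist and rose from between 55.0 and 58.1 to between 104 and 118 FPKM in HMLE-pBp (difference -1.71 ± 0.11). LSS, which closes the ring, fell by 0.82 in HMLE-Twist and rose by 0.97 in HMLE-pBp on the log2 scale.

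The enzymes HSD17B7 (difference -1.71 ± 0.17), CYP51A1 (-1.46 ± 0.18), SC5D (-1.28 ± 0.21), NSDHL (-1.17 ± 0.14) and EBP (-0.88 ± 0.10) were opposite too. HSD17B7 may share reads with its pseudogene HSD17B7P2, which rose in HMLE-pBp from between 1.42 and 1.45 to between 5.13 and 5.78 FPKM, so the split between these copies is uncertain. The fall of CYP51A1 in HMLE-Twist was near the threshold (adjusted p = 0.048, limma; adjusted p = 0.010 with the replicate block and 0.010 to 0.19 over all alternatives), and the gene kept its opposite class in 2 of 12 fits without 1 library. SC5D kept it in 8. SQLE, which makes the first oxygenated sterol precursor, was already 358 to 591 FPKM in HMLE-pBp mock and rose to 734 to 905, while its 106 to 138 FPKM in HMLE-Twist mock overlapped the 122 to 128 with salinomycin. Its difference of -0.85 ± 0.22 was lost without HMLE-Twist salinomycin replicate 1 or 3, or HMLE-pBp mock replicate 2, or HMLE-pBp salinomycin replicate 2 (adjusted p 0.061 to 0.068, with 0.0034 to 0.24 over all alternatives). DHCR7, of the last steps, behaved alike (difference -0.76 ± 0.18) and was lost without HMLE-Twist salinomycin replicate 1 (adjusted p = 0.055, with 0.0012 to 0.27 over all alternatives).

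**Figure D2:**
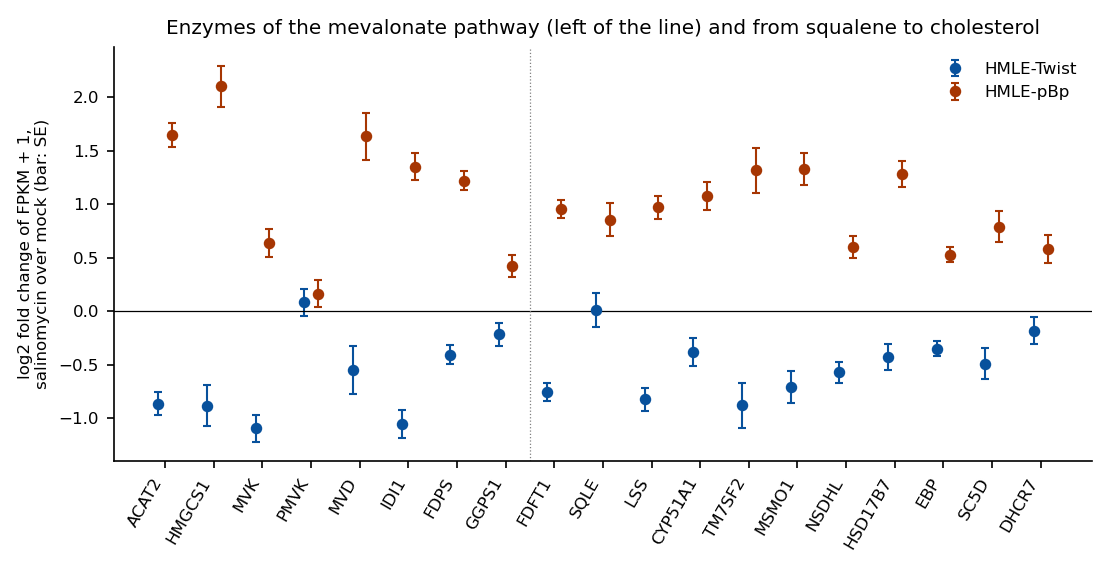
Salinomycin response of 19 of the 21 tested sterol enzymes in pathway order, as the change of log2(FPKM + 1) with its standard error as the bar, in HMLE-Twist and HMLE-pBp (3 against 3 libraries each). HMLE-pBp points lie above 0 and above the HMLE-Twist points for all 19 enzymes shown, and the HMLE-Twist points lie below 0 except for PMVK and SQLE.

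Of 14 genes of SREBP control and cholesterol uptake, 4 differed, all below 0. INSIG1, a SREBP target that holds the SREBP carrier in the ER, was at 119, 95.3 and 118 FPKM in HMLE-Twist mock and fell to 45.2, 56.1 and 47.9 with salinomycin. In HMLE-pBp it rose from 58.3, 97.9 and 118 to 175, 325 and 292 FPKM, and the groups did not overlap in either line. The difference was -2.66 ± 0.36 (adjusted p = 0.0013, limma). STARD4, which moves cholesterol between membranes, fell from between 20.2 and 28.9 to between 14.6 and 17.0 FPKM in HMLE-Twist and rose from between 13.3 and 14.6 to between 32.7 and 39.4 FPKM in HMLE-pBp (difference -1.87 ± 0.18). The genes that encode the SREBP machinery had no called difference in the fit given here: SREBF2 differed by -0.17 (95% interval -0.52 to 0.19), SREBF1 by -0.32 (-1.07 to 0.43) and SCAP by 0.72 (0.14 to 1.29). With the block SCAP was called (adjusted p = 0.0072, and 0.090 in the fit given here), as was INSIG2 with -0.31 (adjusted p = 0.048 and 0.11).

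The liver X receptors respond to oxidised sterols and switch on genes of cholesterol export, and 1 of 7 tested genes of that list differed. That share is near the 13.5% of all genes tested. ABCG1, an exporter, fell in HMLE-pBp from 10.9, 14.2 and 11.2 to 2.73, 5.18 and 4.59 FPKM (response -1.37 ± 0.16, adjusted p = 2.9e-04, limma). All HMLE-Twist libraries were at 0.0515 to 0.218 FPKM, so a response of the same ratio could not be seen there on this scale. The difference was 1.36 ± 0.23. It had no call with limma's voom on reads, where its adjusted p was 0.17 (0.0042 in the fit given here and 1.1e-05 to 0.17 over all alternatives). That range includes the deposited values, with which the ABCG1 difference turned to -1.37. ABCA1 had a difference of -0.05 (95% interval -0.39 to 0.29), and MYLIP and LPCAT3 fell in both lines, with differences of 0.22 and -0.32 that were not called.

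Of 17 tested genes of fatty acid synthesis and desaturation, 10 differed, all below 0, with 6 opposite, 2 called in HMLE-Twist alone and 2 in HMLE-pBp alone. ACSS2, which makes acetyl-CoA from acetate, had the lowest difference of all opposite genes and kept that class in 9 of 12 fits without 1 library. It was at 15.2, 19.1 and 17.2 FPKM in HMLE-Twist mock and 11.8, 13.4 and 10.7 with salinomycin. For HMLE-pBp the values were 6.75, 6.65 and 6.36 FPKM in mock and 65.8, 48.2 and 45.1 FPKM with salinomycin. Groups did not overlap in either line, and mock levels, higher in HMLE-Twist, changed places. The response was -0.48 ± 0.14 in HMLE-Twist (adjusted p = 0.020, limma) and 2.81 ± 0.14 in HMLE-pBp (adjusted p = 5.9e-07, limma), a difference of -3.30 ± 0.19.

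SCD, the desaturase of stearate and an abundant transcript in both lines, was at 726, 713 and 718 FPKM in HMLE-Twist mock and 309, 393 and 349.5 with salinomycin. It rose in HMLE-pBp from 1011, 1184 and 1225 to 1656, 1904 and 1787 FPKM, so the difference of -1.69 ± 0.14 came from changes in both lines. FADS2, a desaturase of polyunsaturated fatty acids, went from between 102 and 157 to between 72.0 and 98.9 FPKM in HMLE-Twist and from between 24.7 and 28.8 to between 60.8 and 64.0 FPKM in HMLE-pBp (difference -1.79 ± 0.22). LPIN1, a phosphatidate phosphatase of glyceride synthesis, differed by -1.55 ± 0.13, with a fall of 0.72 and a rise of 0.83 on the log2 scale. ACLY (difference -1.55) and FADS1 (-1.14) were the other opposite members. ME1, the malic enzyme, fell in HMLE-Twist from between 18.4 and 27.3 to between 15.1 and 16.1 FPKM (difference -0.78 ± 0.21). The ME1 difference was lost without HMLE-Twist mock replicate 2, or HMLE-Twist salinomycin replicate 1, 2 or 3, or HMLE-pBp mock replicate 2 or 3, or HMLE-pBp salinomycin replicate 1 or 2 (adjusted p 0.053 to 0.080, with 0.0022 to 0.31 over all alternatives). With the block its HMLE-pBp response was called as well (adjusted p = 0.034 with the replicate block and 0.026 to 0.55 over all alternatives).

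In the list of glycolysis and hypoxia genes 10 of 29 differed, all below 0 (median difference -0.41, median response 0.00 in HMLE-Twist and 0.41 in HMLE-pBp). Without 1 library 8 to 13 were called, and with the block 17 were, not all below 0. Those added with the block were PFKFB3 (0.60), SLC2A1 (0.48) and HK2 (0.45) above 0, and CA9 (-1.61), P4HA1 (-0.54), TPI1 (-0.50) and ALDOA (-0.47) below. ALDOC, a brain-type aldolase, was opposite, with 33.9, 51.3 and 42.4 FPKM in HMLE-Twist mock, and 24.1, 27.4 and 22.0 with salinomycin. In HMLE-pBp it went the other way, from 8.92, 10.2 and 9.94 to 32.3, 28.7 and 27.3 FPKM. Its groups did not overlap, and the difference was -2.27 ± 0.19 (adjusted p = 5.5e-05, limma). LDHA, lactate dehydrogenase, was opposite with a smaller difference of -0.78 ± 0.10. BNIP3L and BNIP3, receptors for the removal of mitochondria, rose in HMLE-pBp: BNIP3L went from between 7.85 and 8.68 to between 18.2 and 26.6 FPKM and BNIP3 from between 26.0 and 28.9 to between 41.9 and 56.0 FPKM. In HMLE-Twist, where both were higher in mock, BNIP3L overlapped at 49.0 to 63.0 FPKM and BNIP3 at 136 to 207 FPKM. The differences were -1.33 ± 0.18 and -0.99 ± 0.18. PFKFB4, which sets the level of a glycolysis activator, rose in HMLE-pBp from between 4.12 and 6.20 to between 8.78 and 12.2 FPKM (difference -0.95 ± 0.22).

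The 69 genes that rose in HMLE-Twist and fell in HMLE-pBp had differences of 0.57 to 2.11. MYC, the growth-promoting transcription factor, led them. It was at 18.1, 19.8 and 23.1 FPKM in HMLE-Twist mock and 66.2, 53.2 and 69.3 with salinomycin. For HMLE-pBp the values were 156, 116 and 151 FPKM in mock and 87.0, 94.7 and 108 FPKM with salinomycin. All salinomycin libraries lay above mock in HMLE-Twist and below mock in HMLE-pBp, and the gap between the lines narrowed. The response was 1.58 ± 0.14 in HMLE-Twist (adjusted p = 2.3e-05, limma) and -0.53 ± 0.14 in HMLE-pBp (adjusted p = 0.022, limma). MYC kept the opposite class in 8 of 12 fits without 1 library. NFE2L3, a transcription factor of the cap'n'collar family, had 6.54, 4.46 and 5.33 FPKM in HMLE-Twist mock and 12.7, 11.5 and 10.2 with salinomycin. HMLE-pBp had 27.9, 27.6 and 31.1 FPKM in mock and 12.8, 13.9 and 13.2 with salinomycin. Its responses were near in size, 0.96 ± 0.12 and -1.06 ± 0.12, so that the levels of the lines nearly met with salinomycin.

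Membrane transporters followed. SLC6A6, which takes up the osmolyte taurine, rose in HMLE-Twist from between 3.55 and 5.10 to between 7.48 and 11.9 FPKM and fell in HMLE-pBp from between 20.5 and 24.4 to between 9.94 and 14.7 FPKM (difference 1.70 ± 0.26), and it kept its class in 9 of 12 fits without 1 library. KCNJ15, an inwardly rectifying potassium channel, was at 0.783, 0.614 and 0.726 FPKM in HMLE-Twist mock and 2.28, 1.96 and 2.60 with salinomycin. For HMLE-pBp the values were 16.5, 20.04 and 20.2 FPKM in mock and 11.7, 12.7 and 10.3 FPKM with salinomycin. Its difference was 1.60 ± 0.15 (adjusted p = 1.4e-04, limma), and the class held without any 1 library. SLC6A15, a transporter of neutral amino acids, differed by 1.37 ± 0.19 and kept its class in 6 of the 12. SLC12A7, a potassium and chloride cotransporter, differed by 0.98 ± 0.18 at levels of at most 2.44 FPKM and kept its class in 6.

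KLHL21, an adaptor of a ubiquitin ligase, rose in HMLE-Twist from between 6.06 and 8.32 to between 12.7 and 18.0 FPKM, while its fall in HMLE-pBp from between 14.9 and 20.1 to between 10.7 and 13.2 FPKM was at the threshold (adjusted p = 0.0056 with the replicate block and 0.0056 to 0.20 over all alternatives), and the class held in 5 of the 12. PLD6, a phospholipase of the mitochondrial surface, differed by 1.37 ± 0.16, from levels of 0.419 to 1.47 FPKM in HMLE-Twist and 1.41 to 4.21 FPKM in HMLE-pBp. MMP2, a matrix protease with its higher level in HMLE-Twist, rose there from between 49.95 and 62.1 to between 75.3 and 87.3 FPKM and fell in HMLE-pBp from between 2.60 and 3.35 to between 1.42 and 1.55 FPKM. CTSB, a lysosomal protease, rose from between 168 and 212 to between 319.5 and 354 FPKM in HMLE-Twist and fell from between 269.6 and 293 to between 213 and 228 FPKM in HMLE-pBp (difference 1.14 ± 0.13), with its class kept in 9 of the 12. STEAP3, which reduces iron for its uptake into the cytosol, differed by 1.15 ± 0.19 and kept its class in 7, and TNFRSF10B, a death receptor for TRAIL and a CHOP target, differed by 1.1 ± 0.11. In mock, 3 of the 69 genes had the higher level in HMLE-Twist (4.35%), against 56 of the 68 that went the other way (82.4%) and 50.6% of the genes with no called difference. The median gap between the lines, HMLE-Twist minus HMLE-pBp on the log2 scale, went from -1.26 in mock to -0.32 with salinomycin in the 69 and from 0.86 to -0.26 in the 68. The gaps use the same mock libraries as the responses, so they describe the classes and support nothing.

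**Figure D3:**
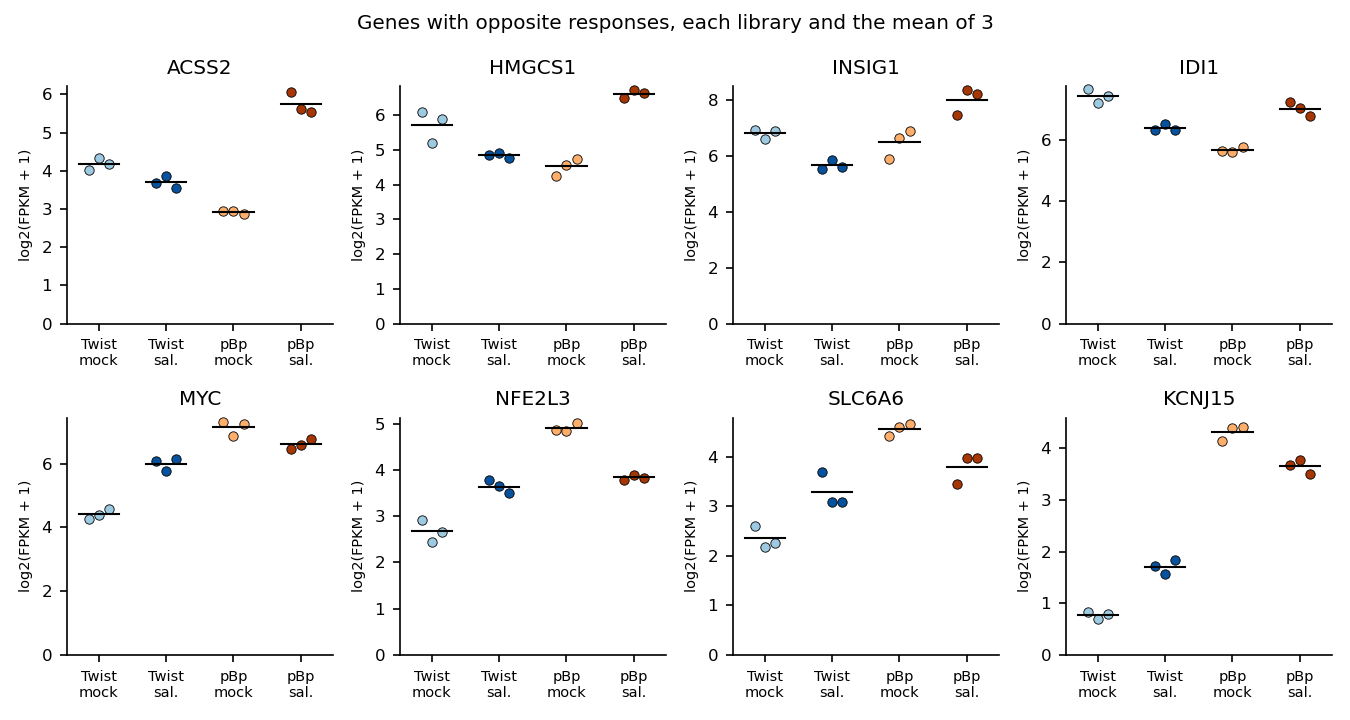
Level of 8 opposite genes in every library, as log2(FPKM + 1) on axes that start at 0, by line and treatment, with bars at the means of 3. In the upper panels (ACSS2, HMGCS1, INSIG1, IDI1) and the lower panels (MYC, NFE2L3, SLC6A6, KCNJ15) the salinomycin (sal.) points lie on 1 side of the mock points in HMLE-Twist and on the other side in HMLE-pBp.

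Among genes called in HMLE-Twist alone, feedback and early response genes of the ERK kinase pathway were many: 13 of 19 differed, all above 0 (median difference 1.05, median response 1.29 in HMLE-Twist and 0.00 in HMLE-pBp). Of the 13, 10 rose in HMLE-Twist alone, 2 (EGR1 and ETV5) rose more there than in HMLE-pBp, and MYC was opposite. IER3, an early response gene of survival signalling, was at 0.938, 0.808 and 1.43 FPKM in HMLE-Twist mock and 9.17, 5.17 and 9.05 with salinomycin, and in HMLE-pBp 29.5, 24.0 and 36.0 FPKM in mock overlapped the 26.3, 18.9 and 24.7 with salinomycin. The response was 2.07 ± 0.21 in HMLE-Twist (adjusted p = 4.9e-05, limma). In HMLE-pBp it was -0.34 ± 0.21 (95% interval -0.79 to 0.12; adjusted p = 0.049 with the replicate block and 0.034 to 0.64 over all alternatives). DUSP4 and DUSP5, phosphatases that switch off ERK, rose in HMLE-Twist from between 1.81 and 2.71 to between 7.37 and 12.5 FPKM and from between 7.95 and 10.6 to between 29.3 and 42.1 FPKM. In HMLE-pBp DUSP5 overlapped at 7.41 to 14.6 FPKM over both treatments, whereas DUSP4 was at 7.56, 6.73 and 8.04 FPKM in mock and 6.01, 6.02 and 6.01 with salinomycin, with no call. The differences were 2.02 ± 0.22 and 1.87 ± 0.29.

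Of 9 EGFR receptors and ligands, 3 rose in HMLE-Twist alone, with 1 to 4 differing without 1 library. EREG, a ligand, went from 3.85, 1.88 and 1.77 to 12.5, 6.72 and 6.29 FPKM there and overlapped at 7.54 to 9.95 FPKM in HMLE-pBp (difference 1.57 ± 0.34). EPGN (1.03 ± 0.27), another ligand, and EGFR itself (0.61 ± 0.15) had smaller differences. That of EPGN was lost without HMLE-Twist mock replicate 2, or HMLE-Twist salinomycin replicate 1 or 3, or HMLE-pBp mock replicate 2 or 3, or HMLE-pBp salinomycin replicate 2 (adjusted p 0.051 to 0.067, with 3.9e-04 to 0.15 over all alternatives), and its fall in HMLE-pBp was called with the block (adjusted p = 0.038 with the replicate block and 0.038 to 0.69 over all alternatives). That of EGFR was lost without HMLE-Twist mock replicate 2, or HMLE-Twist salinomycin replicate 1 or 3, or HMLE-pBp mock replicate 2 or 3 (adjusted p 0.057 to 0.060, with 0.0027 to 0.23 over all alternatives). CXCL8, the chemokine interleukin-8, was at 0.763, 0.173 and 0.251 FPKM in HMLE-Twist mock and 6.62, 3.07 and 4.98 with salinomycin, and at 2.07 to 7.59 FPKM over all HMLE-pBp libraries (difference 2.09 ± 0.48). CXCL1 rose from 1.17, 0.907 and 1.02 to 11.1, 3.76 and 8.11 FPKM in HMLE-Twist, but its HMLE-pBp salinomycin libraries spread from 2.75 to 15.5 FPKM, around the mock range of 6.77 to 12.0. The CXCL1 difference of 2.42 ± 0.65 was lost without HMLE-Twist mock replicate 2, or HMLE-Twist salinomycin replicate 1 or 3, or HMLE-pBp mock replicate 1, 2 or 3, or HMLE-pBp salinomycin replicate 2 or 3 (adjusted p 0.050 to 0.079, with 2.1e-05 to 0.15 over all alternatives). These were the 2 of 9 chemokines and epithelial cytokines that differed, with 1 to 4 without 1 library.

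NF-kB subunits and feedback inhibitors differed in 4 of 12, all above 0 (median difference 0.56), with 1 to 6 without 1 library and 7 with the block. NFKB2, which encodes a subunit precursor, rose in both lines, from between 7.22 and 11.3 to between 29.3 and 34.0 FPKM in HMLE-Twist and from between 9.90 and 11.5 to between 13.3 and 18.4 FPKM in HMLE-pBp (difference 1.18 ± 0.21). BIRC3, an inhibitor of cell death, rose in HMLE-Twist from between 1.80 and 3.35 to between 8.38 and 12.2 FPKM (difference 1.38 ± 0.39). The BIRC3 difference was lost without HMLE-Twist mock replicate 2 or 3, or HMLE-Twist salinomycin replicate 1, 2 or 3, or HMLE-pBp mock replicate 1, 2 or 3, or HMLE-pBp salinomycin replicate 2 or 3 (adjusted p 0.051 to 0.097, with 2.6e-04 to 0.30 over all alternatives), and the gene was called up in HMLE-pBp with the block (adjusted p = 0.025 with the replicate block and 0.025 to 0.99 over all alternatives). RELB, another subunit, differed by 0.94 ± 0.26. The RELB difference was lost without HMLE-Twist mock replicate 1 or 2, or HMLE-Twist salinomycin replicate 1 or 3, or HMLE-pBp mock replicate 1 or 3, or HMLE-pBp salinomycin replicate 2 (adjusted p 0.050 to 0.084, with 6.6e-04 to 0.11 over all alternatives). It too was called up in HMLE-pBp with the block (adjusted p = 0.0062 with the replicate block and 0.0062 to 0.52 over all alternatives). TRAF1 differed by 0.57 ± 0.12 at levels of at most 2.03 FPKM, and with voom by 0.84 (adjusted p = 0.071, and 3.4e-08 to 0.071 over all alternatives).

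The highest difference of all HMLE-Twist-only genes was that of RCN3, which binds calcium inside the ER. Its level was 1.25, 2.20 and 2.17 FPKM in HMLE-Twist mock and 24.6, 26.3 and 27.0 with salinomycin. In HMLE-pBp it was at 0, 0.0323 and 0.0477 FPKM in mock and 0.287, 0.261 and 0.248 with salinomycin, levels that did not overlap but lay far under 1 FPKM. The response was 3.25 ± 0.12 in HMLE-Twist (adjusted p = 5.3e-08, limma) against 0.30 ± 0.12 in HMLE-pBp, where it was called with the block (adjusted p = 0.032 with the replicate block and 8.6e-04 to 0.42 over all alternatives). On a scale of ratios the HMLE-pBp change is larger than this value, since 1 FPKM was added to each level. With voom on reads the RCN3 difference was 0.77 (adjusted p = 0.51, and 4.6e-11 to 0.51 over all alternatives) and not called. RCN1, of the same family, rose in HMLE-Twist from between 100.4 and 108 to between 176 and 182 FPKM and overlapped in HMLE-pBp (difference 0.67 ± 0.12), and these were the 2 of 5 reticulocalbins that differed. CPZ, a secreted carboxypeptidase, had a similar pattern, from between 0.622 and 0.871 to between 5.83 and 7.36 FPKM in HMLE-Twist and 0.0174 to 0.233 FPKM in all HMLE-pBp libraries (difference 1.88 ± 0.13). With voom its difference was 0.66 (adjusted p = 0.51, and 1.2e-12 to 0.51 over all alternatives) and not called. SLCO4A1, an organic anion transporter, rose in HMLE-Twist from between 0.266 and 0.602 to between 2.49 and 4.92 FPKM, while in HMLE-pBp it was at 15.7, 17.7 and 23.8 FPKM in mock and 9.13, 13.0 and 14.2 with salinomycin. That lower level was not called in the fit given here (adjusted p = 0.064, limma) and was with the block (adjusted p = 0.0029 with the replicate block and 0.0029 to 0.24 over all alternatives).

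Amino acid synthesis and transport genes differed in 7 of 18, all above 0, with median responses of 1.00 (HMLE-Twist) and 0.52 (HMLE-pBp). SLC7A5 and SLC3A2 encode the chains of 1 transporter of large neutral amino acids. SLC7A5 was at 49.1, 84.4 and 57.5 FPKM in HMLE-Twist mock and 163, 135 and 145 with salinomycin, and SLC3A2 at 51.5, 72.7 and 75.6 and 119.8, 110.2 and 126 FPKM. In HMLE-pBp both were far higher, at 1487 to 3175 and 654 to 1306 FPKM over both treatments. The differences were 1.68 ± 0.30 and 1.34 ± 0.23, and the SLC3A2 level in HMLE-pBp was called as lower with the block (adjusted p = 0.0085 with the replicate block and 0.0057 to 0.22 over all alternatives). PYCR1, of proline synthesis, rose in both lines and more in HMLE-Twist, from between 6.51 and 13.6 to between 46.6 and 54.8 FPKM, than in HMLE-pBp, from between 12.9 and 16.6 to between 27.8 and 30.5 FPKM (difference 1.29 ± 0.27). SLC7A2, a transporter of cationic amino acids, differed through a fall in HMLE-pBp from between 13.3 and 14.4 to between 3.44 and 5.88 FPKM, with 5.26 to 9.69 FPKM over all HMLE-Twist libraries (difference 1.34 ± 0.27). Of 15 ATF4 and CHOP genes, which respond to ER stress and lack of amino acids, TNFRSF10B alone differed in the fit given here, with 2 at an unadjusted p under 0.05, and the medians were 0.86 in HMLE-Twist and 0.96 in HMLE-pBp. With the block 3 were called. It added CEBPB above 0 (0.89, adjusted p = 0.0030, limma) and DDIT3 below 0 (-0.83, adjusted p = 0.044, limma).

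KDEL receptors and cargo receptors, which return or carry proteins between ER and Golgi, differed in 8 of 22, with 3 to 8 without 1 library. All 8 lay above 0 (median of the list 0.41, from 0.66 in HMLE-Twist and 0.17 in HMLE-pBp). With the block 12 were called, adding ERGIC1 (0.40), YIF1A (0.61) and YIPF2 (0.47) above 0. The block also added the KDEL receptor KDELR3 below 0 (-0.45, adjusted p = 0.023 with the block and 0.11 in the fit given here, limma). TMED3, a p24 cargo adaptor, rose in HMLE-Twist from between 24.2 and 28.9 to between 53.5 and 55.9 FPKM and overlapped at 68.4 to 93.0 FPKM in HMLE-pBp (difference 1.12 ± 0.14). KDELR1 rose from between 104 and 124 to between 192 and 203 FPKM and differed by 0.66 ± 0.14. SURF4 (0.64 ± 0.12) and LMAN1 (0.68 ± 0.17), both cargo receptors, were called up in HMLE-pBp as well with the block (SURF4 adjusted p = 0.034 with the replicate block and 0.034 to 0.54 over all alternatives; LMAN1 adjusted p = 0.018 with the replicate block and 0.0072 to 0.36 over all alternatives), and the LMAN1 difference was lost without HMLE-Twist mock replicate 2, or HMLE-Twist salinomycin replicate 1, or HMLE-pBp mock replicate 2 or 3 (adjusted p 0.057 to 0.061, with 0.0013 to 0.28 over all alternatives).

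The COPII coat, which buds vesicles from the ER, had a median response of 0.76 in HMLE-Twist and 0.73 in HMLE-pBp. Of its 12 genes 9 rose in HMLE-Twist and 9 in HMLE-pBp, and none had a called difference in limma. At an unadjusted p under 0.05 there were 2, limma's voom on reads called 0, and fits without 1 library called 0 or 1. With the block 2 were called, SEC16A (0.34, adjusted p = 0.025) and SEC24D (-0.45, adjusted p = 0.025). For COPI coat, ARF and golgin genes the medians were 0.78 and 0.62, with 5 of 25 differing (0 to 6 without 1 library), 3 above 0 and 2 below. ARFGAP1 rose more in HMLE-Twist (difference 0.83 ± 0.20) and ARFGAP3 rose more in HMLE-pBp (-0.46 ± 0.14), both GTPase activators of ARF. ARFGAP1 was lost without HMLE-Twist mock replicate 2, or HMLE-Twist salinomycin replicate 3, or HMLE-pBp mock replicate 3 (adjusted p 0.054 to 0.059, with 0.0011 to 0.25 over all alternatives) and ARFGAP3 without HMLE-Twist mock replicate 1 or 2, or HMLE-Twist salinomycin replicate 1 or 3, or HMLE-pBp mock replicate 1, 2 or 3, or HMLE-pBp salinomycin replicate 1 or 2 (adjusted p 0.060 to 0.12, with 0.0029 to 0.30 over all alternatives). GOLGA4, a golgin, rose in HMLE-Twist alone (0.66 ± 0.20). The GOLGA4 difference was lost without HMLE-Twist mock replicate 2 or 3, or HMLE-Twist salinomycin replicate 1, 2 or 3, or HMLE-pBp mock replicate 2 or 3, or HMLE-pBp salinomycin replicate 1 or 3 (adjusted p 0.062 to 0.11, with 0.0057 to 0.33 over all alternatives). ARFGAP2 fell there (-0.39 ± 0.12). The ARFGAP2 difference was lost without HMLE-Twist mock replicate 2 or 3, or HMLE-Twist salinomycin replicate 1, 2 or 3, or HMLE-pBp mock replicate 1, 2 or 3, or HMLE-pBp salinomycin replicate 2 or 3 (adjusted p 0.056 to 0.12, with 0.0050 to 0.36 over all alternatives). In the CREB3 family, factors activated by cutting in the Golgi, CREB3L1 fell in HMLE-Twist (-0.69 ± 0.17). The CREB3L1 difference was lost without HMLE-Twist mock replicate 2, or HMLE-Twist salinomycin replicate 1, or HMLE-pBp mock replicate 2 or 3 (adjusted p 0.054 to 0.056, with 2.9e-11 to 0.57 over all alternatives). Its level in HMLE-pBp was at most 0.0737 FPKM, and with voom the difference was -0.93 (adjusted p = 0.57, and 2.9e-11 to 0.57 over all alternatives). That range includes the deposited values, with which the CREB3L1 difference turned to 4.69. CREB3L2 rose in HMLE-Twist (0.55 ± 0.15). The CREB3L2 difference was lost without HMLE-Twist mock replicate 2, or HMLE-Twist salinomycin replicate 1, 2 or 3, or HMLE-pBp mock replicate 1, 2 or 3, or HMLE-pBp salinomycin replicate 1 or 3 (adjusted p 0.052 to 0.092, with 0.0015 to 0.23 over all alternatives).

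Of 19 ER chaperones and disulfide isomerases 2 differed (1 to 3 without 1 library), a share under the 13.5% of all genes tested. PDIA5 rose in HMLE-Twist from between 11 and 13.7 to between 27.5 and 30.6 FPKM (difference 0.95 ± 0.13) and was called up in HMLE-pBp with the block (adjusted p = 0.020 with the replicate block and 0.018 to 0.33 over all alternatives). TXNDC5 differed by 1.20 ± 0.28. The TXNDC5 difference was lost without HMLE-Twist salinomycin replicate 3, or HMLE-pBp mock replicate 3 (adjusted p 0.051 to 0.056, with 2.9e-04 to 0.20 over all alternatives), and the gene was called down in HMLE-pBp with the block (adjusted p = 0.042 with the replicate block and 0.034 to 0.64 over all alternatives). In the list of ER and Golgi calcium pumps and channels 4 of 13 differed (1 to 5 without 1 library): the inositol trisphosphate receptors ITPR3 (0.99 ± 0.14) and ITPR1 (0.56 ± 0.14) and the Golgi protein TMEM165 (0.51 ± 0.13) rose in HMLE-Twist. ORAI3, a store-operated calcium channel, rose in HMLE-pBp from between 4.79 and 6.29 to between 12.2 and 16.0 FPKM (difference -1.02 ± 0.25). The calls were lost for ITPR1 without HMLE-Twist salinomycin replicate 1, or HMLE-pBp mock replicate 2 (adjusted p 0.051 to 0.054, with 0.0014 to 0.26 over all alternatives), for TMEM165 without HMLE-Twist mock replicate 2, or HMLE-Twist salinomycin replicate 1 or 3, or HMLE-pBp mock replicate 2 or 3 (adjusted p 0.053 to 0.070, with 0.0016 to 0.22 over all alternatives) and for ORAI3 without HMLE-Twist salinomycin replicate 1 (adjusted p = 0.056, with 0.0012 to 0.28 over all alternatives). With the block 7 of the 13 were called, adding ATP2A2 (0.34), STIM1 (0.35) and ORAI1 (1.01) above 0. ORAI1 thus lay the other way from ORAI3 (adjusted p = 0.0042 with the block and 0.059 in the fit given here, limma).

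Lysosome and autophagy genes differed in 6 of 28, all above 0, with 4 to 9 without 1 library. CTSL, a lysosomal protease, rose in HMLE-Twist from between 97.3 and 118 to between 188 and 233 FPKM and overlapped in HMLE-pBp (93.4 to 122 and 77.6 to 100.2 FPKM), with a difference of 1.30 ± 0.19. Its HMLE-pBp level was called as lower with the block (adjusted p = 0.016 with the replicate block and 0.016 to 0.55 over all alternatives). CTSA, a protease that also shields lysosomal enzymes, differed by 0.74 ± 0.12, and SQSTM1, the autophagy receptor p62, rose in both lines and differed by 0.86 ± 0.22. The SQSTM1 difference was lost without HMLE-Twist salinomycin replicate 1 or 3, or HMLE-pBp mock replicate 1 or 3, or HMLE-pBp salinomycin replicate 2 (adjusted p 0.053 to 0.068, with 0.0013 to 0.19 over all alternatives). Of 11 iron genes 2 differed (2 to 4 without 1 library), STEAP3 and FBXL5. FBXL5, which senses iron and degrades its regulators, fell in HMLE-Twist from between 17.4 and 23.3 to between 13.6 and 15.3 FPKM (difference -0.76 ± 0.15) and was called up in HMLE-pBp with the block (adjusted p = 0.033 with the replicate block and 0.033 to 0.38 over all alternatives). Potassium channels and cation transporters differed in 4 of 17, all above 0. KCNK6, a background potassium channel, rose in both lines, from between 0.822 and 1.30 to between 7.76 and 9.97 FPKM in HMLE-Twist and from between 10.2 and 13.5 to between 22.3 and 27.8 FPKM in HMLE-pBp (difference 1.30 ± 0.19). With a pseudocount of 5 FPKM the KCNK6 difference was 0.40 with no call (adjusted p = 0.070, and 4.9e-05 to 0.087 over all alternatives). KCNN4, a calcium-activated potassium channel, rose in HMLE-Twist from between 4.79 and 5.90 to between 8.70 and 11.4 FPKM (difference 1.15 ± 0.26). Of 5 aquaporin and osmolyte genes 2 differed, SLC6A6 and AQP3. AQP3, a water and glycerol channel, fell in both lines, from between 74.6 and 99.5 to between 24.9 and 34.8 FPKM in HMLE-pBp and from between 0.968 and 1.23 to between 0.450 and 0.562 FPKM in HMLE-Twist, a level near the 1 FPKM added (difference 1.02 ± 0.18). With voom the AQP3 difference was 0.46 (adjusted p = 0.49, and 7.1e-04 to 0.49 over all alternatives). That range includes the deposited values, with which the AQP3 difference turned to -0.48.

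The genes that fell in HMLE-Twist alone had differences down to -1.91. Of these 445 genes, 76 were under 1 FPKM in all 6 HMLE-pBp libraries, where a fall of the same ratio could not be seen on this scale. The lowest difference was that of WFDC21P, a transcribed pseudogene, at 61.9, 75.4 and 68.4 FPKM in HMLE-Twist mock and 21.4, 24.2 and 28.1 with salinomycin. Its HMLE-pBp levels were 1.37, 2.70 and 1.85 FPKM and 2.96, 2.77 and 3.37 FPKM. It was called up in HMLE-pBp with the block (adjusted p = 0.023 with the replicate block and 0.014 to 0.24 over all alternatives), and its difference was -1.91 ± 0.21. PEG10, an imprinted gene of retrotransposon origin, was expressed in both lines: it fell in HMLE-Twist from 228, 199.6 and 139 to 61.7, 73.1 and 61.4 FPKM and overlapped at 44.0 to 63.7 FPKM in HMLE-pBp (difference -1.54 ± 0.25). MEST, another imprinted gene, fell in HMLE-Twist from between 21.9 and 24.1 to between 2.82 and 6.49 FPKM. Its HMLE-pBp level of 15.7 to 19.0 FPKM in mock and 8.67 to 12.9 with salinomycin was called as lower with the block (adjusted p = 0.013 with the replicate block and 0.0081 to 0.29 over all alternatives), and the difference was -1.48 ± 0.30.

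WISP1, a secreted matricellular protein, fell in HMLE-Twist from 10.7, 15.7 and 11.2 to 1.87, 3.97 and 3.88 FPKM (difference -1.69 ± 0.27) and was at most 0.0289 FPKM in HMLE-pBp. COL3A1, a fibrillar collagen, fell in HMLE-Twist from 319.8, 608 and 499 to 83.1, 207 and 195 FPKM and was at most 0.0684 FPKM in HMLE-pBp. Its difference of -1.61 ± 0.42 was lost without HMLE-Twist mock replicate 2, or HMLE-pBp mock replicate 2 or 3, or HMLE-pBp salinomycin replicate 1 or 2 (adjusted p 0.052 to 0.073, with 7.8e-07 to 0.88 over all alternatives). PLAC8 (-1.47 ± 0.14) and ARHGAP28, a GTPase activator (-1.44 ± 0.23), were likewise under 1 FPKM in all HMLE-pBp libraries. With voom the differences had no call: WISP1 -1.04 (adjusted p = 0.72, and 1.3e-11 to 0.72 over all alternatives), COL3A1 -0.65 (adjusted p = 0.88, and 7.8e-07 to 0.88 over all alternatives), PLAC8 -0.50 (adjusted p = 0.58, and 2.2e-08 to 0.58 over all alternatives) and ARHGAP28 -1.07 (adjusted p = 0.62, and 8.1e-11 to 0.62 over all alternatives). Those ranges include the deposited values, with which the differences turned to 6.36 for WISP1, 3.85 for COL3A1, 1.45 for PLAC8 and 4.45 for ARHGAP28. A low end of such a range need not belong to a fall. SULT1E1, the oestrogen sulfotransferase, fell from 26.8, 41.9 and 19.0 to 8.84, 15.7 and 11 FPKM in HMLE-Twist, and its difference of -1.69 ± 0.43 was lost without HMLE-Twist mock replicate 2, or HMLE-Twist salinomycin replicate 1 or 3, or HMLE-pBp mock replicate 2 or 3, or HMLE-pBp salinomycin replicate 1 or 2 (adjusted p 0.054 to 0.068, with 0.0018 to 0.22 over all alternatives).

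Several abundant genes often used as references were in this class. ACTB was at 2698, 2655 and 2706 FPKM in HMLE-Twist mock and 2044, 1713 and 1905 with salinomycin, and at 2100 to 2517 FPKM over all HMLE-pBp libraries (difference -0.65 ± 0.11, adjusted p = 0.0047, limma). HPRT1 fell from between 67.3 and 83.5 to between 46.5 and 49.4 FPKM in HMLE-Twist (difference -0.63 ± 0.15). The HPRT1 difference was lost without HMLE-Twist salinomycin replicate 3, or HMLE-pBp mock replicate 3 (adjusted p 0.051 to 0.051, with 0.0016 to 0.24 over all alternatives). PPIA differed by -0.46 ± 0.12. The PPIA difference was lost without HMLE-Twist mock replicate 2, or HMLE-Twist salinomycin replicate 1 or 2, or HMLE-pBp mock replicate 2 or 3, or HMLE-pBp salinomycin replicate 1 (adjusted p 0.051 to 0.068, with 0.0059 to 0.29 over all alternatives), and the gene was opposite with the block (adjusted p = 0.045 with the replicate block and 0.045 to 0.39 over all alternatives). YWHAZ was opposite with a difference of -0.63 ± 0.14 and kept that class in 2 of 12 fits without 1 library. Together 4 of 12 reference genes differed, all below 0, with 2 to 5 without 1 library.

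Of 15 cyclins and their kinases 6 differed (0 to 6 without 1 library), 1 above 0 and 5 below. CCND1 (cyclin D1), an ERK target, rose in HMLE-Twist from between 7.87 and 16.6 to between 15.9 and 25 FPKM (difference 1.22 ± 0.33). The CCND1 difference was lost without HMLE-Twist salinomycin replicate 1 or 3, or HMLE-pBp mock replicate 1, 2 or 3, or HMLE-pBp salinomycin replicate 1 or 2 (adjusted p 0.055 to 0.078, with 8.7e-04 to 0.096 over all alternatives), and the gene was called down in HMLE-pBp with the block (adjusted p = 0.0082 with the replicate block and 0.0082 to 0.43 over all alternatives). CCNB2 (-0.60 ± 0.14) and CDK1 (-0.56 ± 0.16) fell in HMLE-Twist, and CDKN2B, an inhibitor of the cyclin D kinases, rose in HMLE-pBp (-0.47 ± 0.12). All 3 calls were lost without single libraries: CCNB2 without HMLE-Twist salinomycin replicate 3, or HMLE-pBp mock replicate 3 (adjusted p 0.051 to 0.052, with 0.0022 to 0.24 over all alternatives), CDK1 without HMLE-Twist mock replicate 1 or 2, or HMLE-Twist salinomycin replicate 1 or 3, or HMLE-pBp mock replicate 2 or 3, or HMLE-pBp salinomycin replicate 1 or 2 (adjusted p 0.055 to 0.095, with 0.0044 to 0.35 over all alternatives) and CDKN2B without HMLE-Twist mock replicate 2, or HMLE-Twist salinomycin replicate 2, or HMLE-pBp mock replicate 2 or 3 (adjusted p 0.054 to 0.062, with 0.0021 to 0.34 over all alternatives). Of 20 mitosis genes NUSAP1 and PRC1 fell in HMLE-Twist, and of 22 DNA replication genes 3 did, RRM1 and CDC6 among them. For all 5 the call depended on single libraries, with differences of -0.51 to -0.34 and, across fits without 1 library, 0 to 6 mitosis and 0 to 4 replication genes called. The shares of mitosis and replication genes called were near or under the 13.5% of all genes tested.

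Genes that rose in HMLE-pBp alone included MVD and HSD17B7P2, given above. IL21R, a cytokine receptor, was at 0.353, 0.986 and 0.634 FPKM in HMLE-pBp mock and 2.77, 4.55 and 3.89 with salinomycin, and at 0.775 to 1.57 FPKM over all HMLE-Twist libraries (difference -1.48 ± 0.25). LBHD1 rose in HMLE-pBp from between 3.03 and 4.71 to between 10.4 and 11.1 FPKM and overlapped at 2.44 to 3.21 in HMLE-Twist (difference -1.35 ± 0.17). C10orf10 (also known as DEPP), a target of FOXO factors, was at 1.5, 1.16 and 1.63 FPKM in HMLE-pBp mock and 7.36, 8.70 and 5.75 with salinomycin. In HMLE-Twist its levels of 0.361, 0.740 and 0.692 and 1.22, 1.32 and 0.870 FPKM did not overlap either, but the response of 0.42 ± 0.15 missed the call (adjusted p = 0.054, limma; adjusted p = 0.051 with the replicate block and 0.026 to 0.33 over all alternatives). With voom its difference was -1.38 (adjusted p = 0.058, and 2.7e-07 to 0.10 over all alternatives). MIR210HG, the host transcript of a hypoxia microRNA, rose in HMLE-pBp from between 0.910 and 1.64 to between 3.45 and 6.88 FPKM, and its difference of -1.31 ± 0.35 was lost without HMLE-Twist mock replicate 2, or HMLE-Twist salinomycin replicate 1, 2 or 3, or HMLE-pBp mock replicate 1, 2 or 3, or HMLE-pBp salinomycin replicate 2 (adjusted p 0.051 to 0.073, with 0.0022 to 0.33 over all alternatives). ESRP1, the splicing factor that sets epithelial exon use, rose in HMLE-pBp from 34.3, 32.5 and 33.4 to 52.4, 46.8 and 44.9 FPKM and was at most 0.11 FPKM in HMLE-Twist (difference -0.59 ± 0.11).

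Of the 234 genes that fell in HMLE-pBp alone, 63 were under 1 FPKM in all 6 HMLE-Twist libraries. The largest differences included small nucleolar RNA and microRNA genes, whose values rest on few reads and which lie in introns or exons of host genes, so that small RNA and host reads cannot be told apart. SNORD12B had 0 to 14 reads a library and a difference of 2.03 ± 0.56. The SNORD12B difference was lost without HMLE-Twist mock replicate 1 or 2, or HMLE-Twist salinomycin replicate 1 or 2, or HMLE-pBp mock replicate 1 or 3, or HMLE-pBp salinomycin replicate 2 (adjusted p 0.051 to 0.086, with 3.0e-04 to 0.26 over all alternatives). SNORA24 had 3 to 55 reads and fell in HMLE-pBp from 14.5, 14.6 and 18.6 to 2.96, 3.69 and 7.4 FPKM (difference 1.73 ± 0.36; with voom 1.96 (adjusted p = 0.054, and 3.2e-04 to 0.22 over all alternatives)). SNORD60 (2 to 27 reads, difference 1.97 ± 0.50) was lost without HMLE-Twist mock replicate 2, or HMLE-Twist salinomycin replicate 1 or 3, or HMLE-pBp mock replicate 2 or 3, or HMLE-pBp salinomycin replicate 2 (adjusted p 0.056 to 0.070, with 2.8e-04 to 0.33 over all alternatives). SNORA20 (0 to 9 reads, 1.70 ± 0.47) was lost without HMLE-Twist mock replicate 1 or 2, or HMLE-Twist salinomycin replicate 1 or 3, or HMLE-pBp mock replicate 2 or 3, or HMLE-pBp salinomycin replicate 1 or 2 (adjusted p 0.054 to 0.092, with 2.2e-04 to 0.31 over all alternatives). MIR6894 (0 to 3 reads, 1.68 ± 0.45) was lost without HMLE-Twist mock replicate 1 or 2, or HMLE-Twist salinomycin replicate 1, or HMLE-pBp salinomycin replicate 1 or 2 (adjusted p 0.056 to 0.078, with 0.0015 to 0.16 over all alternatives). With the block SNORD60 and MIR6894 were called up in HMLE-Twist too (SNORD60 adjusted p = 0.0089 with the replicate block and 0.0089 to 0.53 over all alternatives; MIR6894 adjusted p = 0.022 with the replicate block and 0.018 to 0.53 over all alternatives).

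Long host transcripts of small nucleolar RNAs showed the same direction: 7 of 13 differed, with 3 to 10 without 1 library, all above 0 (median 0.73, from 0.21 in HMLE-Twist and -0.53 in HMLE-pBp). SNHG4 fell in HMLE-pBp from 28.7, 34.5 and 36.9 to 7.27, 10.3 and 16.7 FPKM and was at 3.27 to 4.36 FPKM over all HMLE-Twist libraries (difference 1.5 ± 0.31). SNHG7 (0.85 ± 0.20) and SNHG3 (0.80 ± 0.21) also fell in HMLE-pBp alone, and EPB41L4A-AS1 (0.94 ± 0.27) rose in HMLE-Twist. These were lost for SNHG7 without HMLE-pBp mock replicate 3 (adjusted p = 0.051, with 0.0015 to 0.28 over all alternatives), for SNHG3 without HMLE-Twist mock replicate 2, or HMLE-Twist salinomycin replicate 1 or 3, or HMLE-pBp mock replicate 2 or 3 (adjusted p 0.060 to 0.074, with 0.0021 to 0.30 over all alternatives) and for EPB41L4A-AS1 without HMLE-Twist mock replicate 1 or 2, or HMLE-Twist salinomycin replicate 1, 2 or 3, or HMLE-pBp mock replicate 2 or 3, or HMLE-pBp salinomycin replicate 1 or 2 (adjusted p 0.055 to 0.10, with 5.4e-04 to 0.36 over all alternatives). EPB41L4A-AS1 is antisense to its neighbour and was called down in HMLE-pBp with the block (adjusted p = 0.019 with the replicate block and 0.012 to 0.66 over all alternatives).

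FST (follistatin), which binds and blocks activin, fell in HMLE-pBp from 18.8, 14.1 and 12.2 to 8.52, 5.07 and 4.65 FPKM, while HMLE-Twist libraries were at 0.598, 0.187 and 0.408 FPKM in mock and 1.40, 0.624 and 0.761 with salinomycin. Its difference was 1.65 ± 0.31, and with the block it was called up in HMLE-Twist (adjusted p = 0.0027 with the replicate block and 0.0027 to 0.51 over all alternatives). CTGF, a matricellular target of YAP and TGF-beta, fell in HMLE-pBp from 22.2, 15.3 and 16.2 to 14, 6.23 and 5.03 FPKM. Its difference of 1.53 ± 0.40 was lost without HMLE-Twist mock replicate 2, or HMLE-Twist salinomycin replicate 1 or 3, or HMLE-pBp mock replicate 1 or 3, or HMLE-pBp salinomycin replicate 2 (adjusted p 0.054 to 0.072, with 3.3e-04 to 0.29 over all alternatives), and it was called up in HMLE-Twist with the block (adjusted p = 0.039 with the replicate block and 0.039 to 0.63 over all alternatives). FJX1 fell in HMLE-pBp from between 37.8 and 50.9 to between 13.7 and 24.0 FPKM (difference 1.58 ± 0.42). The FJX1 difference was lost without HMLE-Twist mock replicate 1 or 2, or HMLE-Twist salinomycin replicate 1 or 3, or HMLE-pBp mock replicate 2 or 3, or HMLE-pBp salinomycin replicate 1 or 2 (adjusted p 0.052 to 0.076, with 1.6e-04 to 0.19 over all alternatives). It was likewise called up in HMLE-Twist with the block (adjusted p = 0.0055 with the replicate block and 0.0055 to 0.75 over all alternatives). PROCR, a surface marker of mammary stem cells, fell in HMLE-pBp from between 68.2 and 91.2 to between 30.5 and 43.5 FPKM and overlapped in HMLE-Twist at 19.6 to 28.2 FPKM (difference 0.90 ± 0.22). The PROCR difference was lost without HMLE-Twist mock replicate 2, or HMLE-Twist salinomycin replicate 1 or 3, or HMLE-pBp mock replicate 3 (adjusted p 0.052 to 0.061, with 0.0010 to 0.23 over all alternatives). GRHL3, an epithelial transcription factor, fell from between 3.29 and 4.57 to between 1.97 and 2.25 FPKM in HMLE-pBp and was at most 0.0683 FPKM in HMLE-Twist (difference 0.62 ± 0.14). With voom the GRHL3 difference was 1.49 (adjusted p = 0.21, and 2.8e-10 to 0.21 over all alternatives). That range includes the deposited values, with which it turned to -3.43.

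**Figure D4:**
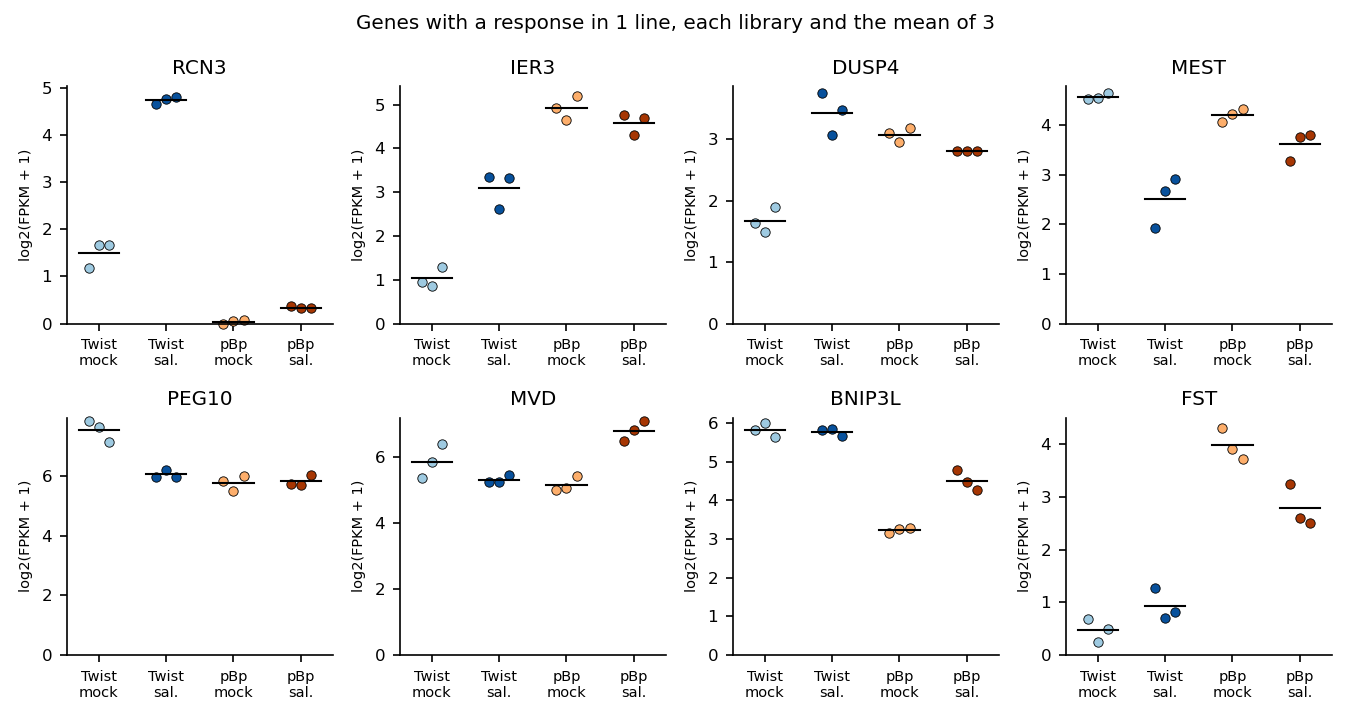
Level in every library, as log2(FPKM + 1) on axes that start at 0, of 8 genes called in 1 line alone, by line and treatment, with bars at the means of 3. RCN3 is near 0 in all 6 HMLE-pBp libraries, whereas PEG10, MVD and BNIP3L are expressed in both lines and the groups overlap in the line without a call. They do not overlap there for RCN3, DUSP4 and MEST (HMLE-pBp) or for FST (HMLE-Twist). With the replicate block RCN3, IER3, MEST, MVD and FST are called in both lines.

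Of 7 genes that define the lines, FN1 and ESRP1 differed, with values beside their lists. CDH1 (difference -0.10, 95% interval -0.34 to 0.14), ZEB1 (-0.36, -0.76 to 0.04), VIM (-0.19, -0.86 to 0.48), CDH2 (0.36, 0.05 to 0.68) and TWIST1 (0.58, -0.21 to 1.37) had no called difference. In HMLE-Twist CDH1 was at most 0.155 FPKM and ESRP1 at most 0.11, and in HMLE-pBp ZEB1 was at most 0.18 FPKM. A response of these genes in the line with the low level could not be seen on this scale. With the block CDH2 (adjusted p = 0.040 with the replicate block and 3.9e-05 to 0.47 over all alternatives) and TWIST1 (adjusted p = 0.022 with the replicate block and 0.017 to 0.68 over all alternatives) were called. Of 32 epithelial junction and keratin genes 5 differed (1 to 8 without 1 library), 4 above 0 and 1 below. LAMB3, a laminin chain of the epithelial basement membrane, rose in HMLE-Twist from 9.84, 9.90 and 9.82 to 45.9, 29.4 and 32.0 FPKM and was at 344 to 546 FPKM in HMLE-pBp (difference 1.38 ± 0.21). CLDN1, a tight junction claudin, differed by 1.08 ± 0.28, a call that was lost without HMLE-Twist salinomycin replicate 1, 2 or 3, or HMLE-pBp mock replicate 1 or 2, or HMLE-pBp salinomycin replicate 2 (adjusted p 0.053 to 0.064, with 4.1e-04 to 0.31 over all alternatives). KRT5, a basal keratin, fell in HMLE-Twist from 4.03, 2.90 and 1.55 to 0.935, 0.589 and 0.761 FPKM, against 997 to 1264 FPKM in HMLE-pBp (difference -0.98 ± 0.27). The KRT5 difference was lost without HMLE-Twist mock replicate 2, or HMLE-Twist salinomycin replicate 1, 2 or 3, or HMLE-pBp mock replicate 2 or 3, or HMLE-pBp salinomycin replicate 1 or 2 (adjusted p 0.056 to 0.085, with 3.2e-05 to 0.39 over all alternatives). Of 12 epithelial transcription and splicing factors, ESRP1 and GRHL3 differed.

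Of 9 EMT transcription factors 2 differed, in opposite senses, with 0 by voom on reads, 4 with the block and 1 to 4 without 1 library. SNAI1 (Snail) fell in HMLE-Twist from 4.03, 3.51 and 3.38 to 1.70, 1.81 and 1.99 FPKM and was at most 0.156 FPKM in HMLE-pBp (difference -0.64 ± 0.12). With voom the SNAI1 difference was 0.0096 (adjusted p = 0.99, and 2.6e-11 to 0.99 over all alternatives), and with a pseudocount of 0.1 FPKM it was -0.51 with no call (adjusted p = 0.28). That range includes the deposited values, with which the SNAI1 difference turned to 3.22. FOXC2 rose in HMLE-Twist from 4.12, 4.36 and 8.41 to 10.3, 7.95 and 13.5 FPKM, where the groups overlapped, with a difference of 1.06 ± 0.31 that was lost without HMLE-Twist mock replicate 1 or 2, or HMLE-Twist salinomycin replicate 1 or 3, or HMLE-pBp mock replicate 1, 2 or 3, or HMLE-pBp salinomycin replicate 1 or 2 (adjusted p 0.067 to 0.11, with 5.1e-06 to 0.29 over all alternatives). Of 38 mesenchymal and matrix genes 11 differed (7 to 13 without 1 library), 6 above 0 and 5 below. FN1 (fibronectin) rose in HMLE-Twist from 858, 741 and 735 to 1148, 1239 and 1170 FPKM and was at 214 to 263 FPKM in HMLE-pBp (difference 0.74 ± 0.12), and MMP2, COL3A1 and WISP1 are given above. Of 8 stem and progenitor markers PROCR and CD44 differed (0 to 4 without 1 library). CD44, an adhesion receptor, rose in HMLE-Twist from between 53.1 and 76.6 to between 94.7 and 121 FPKM and overlapped at 202 to 235 FPKM in HMLE-pBp (difference 0.76 ± 0.18). The CD44 difference was lost without HMLE-Twist salinomycin replicate 1 or 3, or HMLE-pBp mock replicate 2 or 3 (adjusted p 0.051 to 0.055, with 8.7e-04 to 0.14 over all alternatives). Of 14 activin and TGF-beta genes FST and LTBP1 differed, a share near the 13.5% of all genes tested. LTBP1, which anchors latent TGF-beta, rose in HMLE-Twist from between 37.3 and 41.7 to between 60.05 and 63.1 FPKM (difference 0.73 ± 0.14).

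Of 14 NRF2 targets 4 differed: PGD, of the pentose phosphate pathway, was opposite (-0.85 ± 0.10), ME1 fell, and OSGIN1 (0.97 ± 0.22) and ABCC3 (0.53 ± 0.12) rose in HMLE-Twist. Of 14 p53 targets 3 differed (3 to 5 without 1 library): RRM2B, a ribonucleotide reductase subunit, was opposite (-0.86 ± 0.15) and kept that class in 8 of 12 fits without 1 library. TNFRSF10B was opposite the other way, and TP53INP1, an autophagy and stress protein, rose in HMLE-pBp (-0.81 ± 0.17). Of 12 interferon-stimulated genes, IFIT1 fell more in HMLE-Twist (-0.69 ± 0.17). The IFIT1 difference was lost without HMLE-Twist salinomycin replicate 1 or 3, or HMLE-pBp mock replicate 3 (adjusted p 0.054 to 0.057, with 0.0026 to 0.94 over all alternatives). Of 17 cytosolic and mitochondrial heat shock proteins, CRYAB, a small chaperone, differed (-0.63 ± 0.18) with no call in either line. The CRYAB difference was lost without HMLE-Twist mock replicate 2, or HMLE-Twist salinomycin replicate 1 or 3, or HMLE-pBp mock replicate 1 or 2, or HMLE-pBp salinomycin replicate 1, 2 or 3 (adjusted p 0.063 to 0.097, with 4.2e-07 to 0.24 over all alternatives), and the gene was opposite with the block (adjusted p = 0.011 with the replicate block and 0.011 to 0.26 over all alternatives in HMLE-Twist). Of 3 tested leukocyte markers, CD68, a lysosomal protein, rose in HMLE-Twist (0.45 ± 0.12). The CD68 difference was lost without HMLE-Twist mock replicate 2, or HMLE-Twist salinomycin replicate 1 or 3, or HMLE-pBp mock replicate 2 or 3, or HMLE-pBp salinomycin replicate 2 (adjusted p 0.055 to 0.076, with 9.8e-04 to 0.30 over all alternatives), and the gene was called up in HMLE-pBp with the block (adjusted p = 0.024 with the replicate block and 0.018 to 0.39 over all alternatives). The 1 endothelial marker tested had no called difference, 0 at an unadjusted p under 0.05 in limma and 0 with voom. The shares of interferon-stimulated and heat shock genes called were under the 13.5% of all genes tested.

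**Figure D5:**
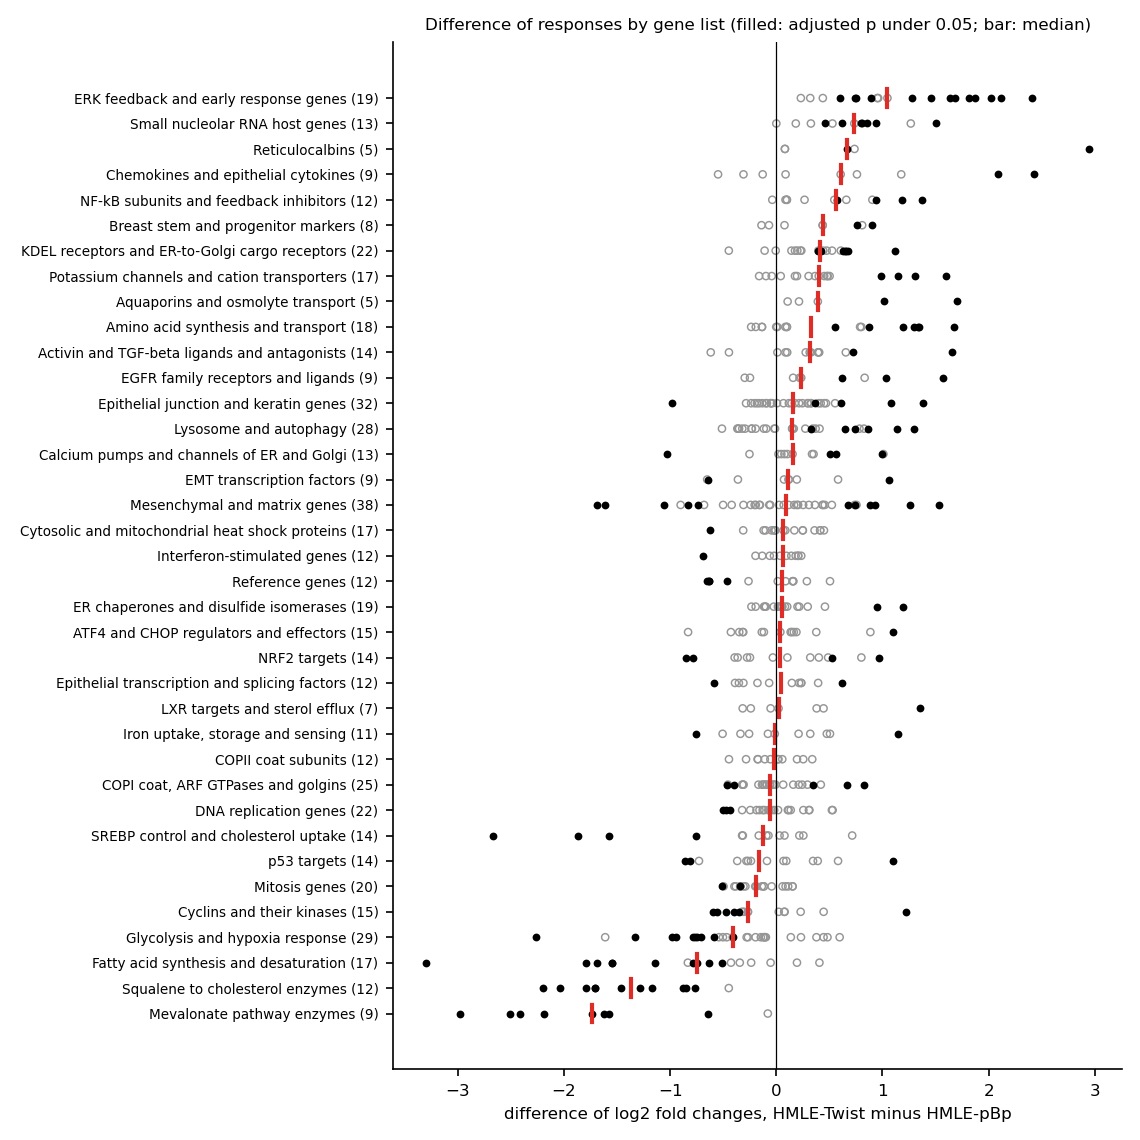
Difference of responses (HMLE-Twist minus HMLE-pBp, log2 scale) of every tested gene, 1 row a list with the number tested, filled where called and open where not, with a bar at the list's median. The medians run from -1.73 for mevalonate enzymes at the bottom to 1.05 for ERK genes at the top.

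A gene's length was recovered with its reads, and where it is far from the GENCODE length the mock reads may be a multiple of those counted. Such a multiple would shift both responses of the gene alike, which can move its class, and leave the difference nearly as it is. Among genes named above the ratio of recovered to GENCODE length was 5.57 for IER3, 2.67 for SC5D, 2.28 for SNHG4, 2.08 for EPGN, 1.84 for MYLIP, 1.73 for CDK1, 1.59 for BIRC3, 1.55 for HMGCS1, 1.47 for HSD17B7, 0.40 for EPB41L4A-AS1, 0.46 for KCNK6, 0.57 for IDI1, 0.57 for BNIP3, 0.60 for ACAT2, 0.60 for EGFR, 0.61 for PLAC8, 0.65 for EBP and 0.68 for FOXC2.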

How the data were processed

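Gene expression was measured by RNA sequencing (stranded mRNA libraries, paired reads, per the labels' protocols) in 12 libraries, 3 in each of 4 groups. The authors deposited 1 table a group with 26364 genes, of which 26357 have names alike in all 4. The deposited mock tables hold FPKM, scaled within each table. The deposited salinomycin tables are named FPKM but hold log2 values, also scaled within each table and with the spread between libraries shrunk. DESeq2 1.1.0 and hg19 are named per the submitters' processing notes. Aligner, counter and annotation are not named in the sources used here. The tables were normalized separately, so read counts were recovered from the steps in the deposited values. Of the salinomycin values 96.5% (HMLE-Twist) and 95.3% (HMLE-pBp) came within 0.1 of a whole read, 33.5% and 39.1% for genes over 10000 reads, where rounding of the values is wider than a read. All mock values did, and 64.1% of 12284 genes had a recovered length within 5% of a GENCODE length. For 1514 genes the multiple of reads was not settled, and these were left out, among them AQP5, BTC, DCN, PROM1 and SDF2L1 of the lists.

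From these reads FPKM were rebuilt, using median-of-ratios size factors of all 12 libraries. Genes with at least 1 FPKM in at least 3 libraries were fitted on log2(FPKM + 1) with limma 3.58.1 in R 4.3.3 (all 4 groups in 1 model, empirical Bayes with a trend), and p-values were adjusted over all 11907 genes. The scripts were tested on simulated data. The labels call the libraries biological triplicates. The fit given here had no block and did not use a pairing of libraries. Same-numbered libraries correlated within a line (0.43 to 0.72 in HMLE-Twist, 0.23 to 0.60 in HMLE-pBp, as deviations from group means). The alternatives with a block therefore took the replicate number to pair them, from these values and the labels' numbers. Across lines the pairs correlated at 0.21 to 0.44 (replicate 1), 0.04 to 0.18 (replicate 2) and 0.50 to 0.67 (replicate 3).

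The members and the 40 gene lists were chosen with earlier results of these data known. Named were the 8 genes with the largest difference in each class, up to 4 called members a list, all mevalonate, cholesterol, SREBP control and LXR members, and TWIST1, CDH1, CDH2, VIM, FN1, ESRP1 and ZEB1. Some genes that this rule names are not reported here. ACLY, FADS1, LDHA, EGR1 and ETV5 were named after their values were seen. Alternatives changed the pseudocount, filter, scaling, unit, test, block and libraries. Ranges of a difference over all alternatives include the deposited values, with which some differences turned. Promoters were searched with Python 3.11.15.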

Additional observations from a re-analysis of the deposited data

Results flagged for a closer look

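The difference between the lines' responses was itself tested, and this is what marked the following results. The difference was called above 0 for 829 genes and below 0 for 782. Opposite responses were called for 68 genes that fell in HMLE-Twist and rose in HMLE-pBp, and for 69 genes that did the reverse. Of the first kind, the differences on the log2 scale were -3.30 for ACSS2, -2.98 for HMGCS1, -2.66 for INSIG1, -2.51 for ACAT2, -2.41 for IDI1, -2.27 for ALDOC, -2.19 for TM7SF2 and -2.04 for MSMO1. Of the second kind they were 2.11 for MYC, 2.02 for NFE2L3, 1.70 for SLC6A6, 1.60 for KCNJ15, 1.51 for KLHL21, 1.37 for PLD6 and 1.37 for SLC6A15.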

How the results depend on the processing

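For the difference, HMLE-Twist-only, HMLE-pBp-only, opposite and same-direction classes in that order, the counts were 1611, 873, 422, 137 and 50. They were 3874, 1653, 1234, 523 and 266 with the replicate block within each line, and 3472, 1578, 1062, 438 and 187 with the replicate block over all 4 groups. Leaving out 1 library gave 764 to 2387, 411 to 1325, 164 to 575, 62 to 196 and 21 to 85. The lowest counts of differences came without HMLE-pBp mock replicate 3 (764), HMLE-Twist salinomycin replicates 1 (781) and 3 (784), HMLE-Twist mock replicate 2 (861), and HMLE-pBp mock replicate 2 (873) and salinomycin replicate 2 (1064). The highest HMLE-Twist-only count came without HMLE-Twist mock replicate 3 (1325). Without HMLE-pBp salinomycin replicate 1 there were 82 opposite and 222 HMLE-pBp-only genes, without HMLE-Twist mock replicate 1 there were 85 of the same direction, and without HMLE-pBp mock replicate 1 there were 32. The alternative of leaving out a replicate number from all 4 groups was chosen after seeing the data: replicate 2 left 54, 32, 7, 15 and 0 (1765 differences at an unadjusted p under 0.05 in limma), replicate 3 left 702, 370, 200, 53 and 12, and replicate 1 left 1157, 651, 283, 117 and 51. These fits have fewer samples. The difference was still called for 128, 34 and 119 of the 137 opposite genes without replicate 1, 2 and 3. The deposited values were used with mock as log2(FPKM + 1) and with the HMLE-Twist salinomycin values shifted to a median difference of 0. They gave 4771 differences and no classes. The cause was not tested. Pseudocounts of 0.1 and 5, a mean of at least 5 FPKM, no filter, scaling by total reads, TPM, voom on reads and keeping unsettled genes gave 1250 to 1733 differences and 104 to 142 opposite genes. Of the values of single genes, 3105 kept direction and side of the threshold, 413 lost the call, 12 gained it and 21 turned. With the deposited values these turned: ABCA1 0.91, ABCG1 -1.37, AQP3 -0.48, ARHGAP28 4.45, COL3A1 3.85, CREB3L1 4.69, GRHL3 -3.43, IFIT1 0.016, PLAC8 1.45, SNAI1 3.22, WISP1 6.36 and ZEB1 2.92; the cause was not tested. SNAI1 was 0.0096 with voom. ABCA1, with no call, was 0.072 with a pseudocount of 0.1, 0.017 on TPM and 0.13 with voom, -0.15 to 0.030 without 1 library (above 0 without HMLE-Twist mock replicate 2 or HMLE-Twist salinomycin replicate 1), and 0.042 and 0.067 without replicates 1 and 2. PMVK was -0.21 to 0.041 without 1 library (above 0 without HMLE-Twist mock replicate 3 or HMLE-pBp salinomycin replicate 3) and 0.12 without replicate 3. VIM was -0.45 to 0.076 (above 0 without HMLE-pBp salinomycin replicate 1). Changes of genes far under 1 FPKM cannot be seen on the scale used.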
